A study of Mus musculus with 96 samples.

Results

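The genes described here are 35 components of the antioxidant defence of the heart and of the NRF2 pathway that controls part of it, followed through RNA of mouse ventricle. They were taken as a named list from the deposited gene counts: Nfe2l2 and Keap1, the inducible NRF2 targets and haem oxygenases (6 genes), glutathione synthesis and recycling (4), the thioredoxin system (5), the peroxiredoxins (6), the glutathione peroxidases (3), the superoxide dismutases and catalase (4) and the glutathione S-transferases (5). The table holds 55376 genes, 15629 of which passed the filter on low counts, and all 35 members were among those. The study made an inducible knockout of the clock gene Bmal1 (Arntl) in heart muscle cells, to ask how BMAL1 bears on differences between the sexes in the daily transcriptome of the heart.

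Every mouse had the genotype label iCSBmal1 KO, so vehicle and tamoxifen animals share it, and tamoxifen is the drug that sets off the deletion. The 4 groups were females and males given vehicle and females and males given tamoxifen. Each had 24 libraries, 2 at each of 12 circadian times from ct 18 to ct 62 every 4 h, 96 in all. Strain, age, interval since the drug and the promoter behind the recombinase were not found in the labels. No group received tamoxifen without the knockout alleles, so the drug and the deletion cannot be told apart. Title numbers of vehicle males, of vehicle females and of tamoxifen animals fell in separate ranges, the last shared by the sexes. What the ranges stand for is not stated in the labels. The sex difference in vehicle hearts, the change with tamoxifen in each sex and their interaction cannot be told apart from a difference between ranges. Whether each library had an animal of its own is not stated in the labels, and p-values then measure the spread between these libraries.

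NRF2, the product of Nfe2l2, is a transcription factor that binds antioxidant response elements (AREs) beside genes for detoxification, glutathione and thioredoxin enzymes. KEAP1 holds NRF2 in the cytoplasm and hands it to a ubiquitin ligase, and oxidants and electrophiles that modify KEAP1 let NRF2 accumulate. The heart makes much superoxide and hydrogen peroxide in its mitochondria, and superoxide dismutases, catalase, peroxiredoxins and glutathione peroxidases remove them with reducing power from NADPH. BMAL1 binds E-boxes as part of the circadian clock, and Nfe2l2 is known as a gene under clock control in several tissues.

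Promoter windows of 250 bases before the RefSeq start on GRCm38.p6 were found for 29 of the 35 members. An ARE core, written TGACNNNGC and searched on both strands, occurred in the windows of 6 of the 29 (20.7%): Gclm, Mgst1, Nfe2l2, Prdx1, Sod1 and Txnrd1. The same letters occurred in windows of 11.5% of all 27025 genes with one. The E-box CACGTG occurred in 1 member, Prdx4 (6.86% of all genes), and the D-box TTATGTAA and the cAMP response element TGACGTCA in 0 (0.98% and 1.77% of all genes). Matches of the ARE core and of the other motifs did not overlap in these members. Of the windows below, Gclm (chr3:122245307-122245556, plus strand), Nfe2l2 (chr2:75704664-75704913, minus strand) and the second of 3 starts of Txnrd1 (chr10:82858956-82859205, plus strand) hold the core, shown in capitals at bases 134 to 126, 240 to 232 and 92 to 84 before the start, on the reverse strand in Gclm and Txnrd1. Nqo1 (chr8:107403206-107403455, minus strand) and Osgin1 (chr8:119436897-119437146, plus strand) are also shown, and no match lies in these windows. With all libraries Nqo1 carried the largest change with tamoxifen of any member, and Osgin1 the largest daily amplitude of any member in females. A match is a description of letters and not a measured site.
Gclm: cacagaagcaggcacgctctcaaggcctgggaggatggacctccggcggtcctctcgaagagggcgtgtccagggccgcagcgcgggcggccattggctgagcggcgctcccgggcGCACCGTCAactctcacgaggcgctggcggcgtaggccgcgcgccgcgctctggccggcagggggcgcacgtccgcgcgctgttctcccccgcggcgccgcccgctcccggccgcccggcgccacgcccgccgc
Nfe2l2: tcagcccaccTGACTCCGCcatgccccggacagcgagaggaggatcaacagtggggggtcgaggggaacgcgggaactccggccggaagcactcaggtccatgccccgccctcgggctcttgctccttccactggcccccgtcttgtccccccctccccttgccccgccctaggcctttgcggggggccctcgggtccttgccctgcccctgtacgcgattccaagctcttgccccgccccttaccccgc
Txnrd1: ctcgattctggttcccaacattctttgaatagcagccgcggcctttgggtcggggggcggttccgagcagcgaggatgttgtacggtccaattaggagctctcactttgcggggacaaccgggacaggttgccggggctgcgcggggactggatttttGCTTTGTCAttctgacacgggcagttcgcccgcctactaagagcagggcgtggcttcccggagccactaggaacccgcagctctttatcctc
Nqo1: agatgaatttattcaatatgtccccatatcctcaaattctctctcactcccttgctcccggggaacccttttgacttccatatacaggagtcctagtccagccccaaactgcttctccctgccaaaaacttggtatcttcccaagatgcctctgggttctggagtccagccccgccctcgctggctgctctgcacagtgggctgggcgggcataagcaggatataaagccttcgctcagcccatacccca
Osgin1: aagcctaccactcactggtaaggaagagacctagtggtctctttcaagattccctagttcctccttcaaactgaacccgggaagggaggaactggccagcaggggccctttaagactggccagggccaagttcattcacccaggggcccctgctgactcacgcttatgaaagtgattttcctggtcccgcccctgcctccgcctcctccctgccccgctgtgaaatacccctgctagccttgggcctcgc

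Values below are CPM (counts of a gene scaled to a fixed library total) after scaling of libraries by the trimmed mean of M values (TMM). Differences are log2 changes ± standard error from a single edgeR quasi-likelihood model of all 96 libraries that holds a mean and a 24 h rhythm for each group. A gene is called at a Benjamini-Hochberg adjusted p under 0.05 over the 15629 genes.

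Library totals ran from 8944955 to 20596194 counts, and the vehicle male libraries were on average the smallest. Arntl itself, counted over the whole gene and so not over the deleted exons alone, swung 27.2-fold from trough to peak in vehicle females and 17.1-fold in vehicle males, and with tamoxifen it swung 3.33-fold in females and 3.35-fold in males. The 10 marker genes of heart muscle cells summed to 42840 to 55620 CPM across libraries. Some libraries stood apart. In 10 vehicle male libraries, spread over 8 of the 12 times, the share of counts in gene models of type TEC (predicted transcripts still to be verified) was 0.123% to 0.190%, above the highest library of every other group (0.112%). In 13 libraries (7 and 3 of vehicle females and males, 1 and 2 of tamoxifen females and males) the atrial gene Myl7 was over 20 CPM. One library labelled tamoxifen female at ct 54 held 0.272 CPM of Xist, against at least 194 CPM in the other female libraries. That library held 11.3 CPM of the Y-chromosome gene Ddx3y. Other female libraries held at most 0.117 CPM of Ddx3y and male libraries at least 121.7 CPM. One labelled tamoxifen male at ct 54 held 1.31 CPM of Arntl against 17.8 CPM in its pair. Arntl was also well below the pair in a tamoxifen female library at ct 58 (2.85 against 10.6 CPM). In tamoxifen males it was so at ct 34 (5.17 against 11.5), ct 38 (2.96 against 9.04) and ct 58 (4.83 against 13.7). A vehicle female pair at ct 30 held 24.1 and 9.25 CPM. Vehicle male pairs held 4.26 and 10.2 CPM at ct 18, 1.27 and 3.16 at ct 38, and 6.30 and 2.77 at ct 58. No fit left out the tamoxifen libraries at ct 34, 38 and 58, or these vehicle pairs, for their Arntl. All 10 endothelial markers and all 6 erythroid markers were higher in vehicle males than in vehicle females, and 7 of 12 macrophage markers were lower with tamoxifen in each sex. In bulk RNA fewer cells of a type and less RNA per cell cannot be told apart.

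Per kilobase of exon, the mean level over all libraries was highest for Prdx3 (258 CPM per kb), the peroxiredoxin of mitochondria, Gpx4 (243), Mgst3 (207), Txnip (180) and Prdx5 (159). It was lowest for Gss (2.998) and Osgin1 (2.11). Nfe2l2 stood at 24.3 and its inhibitor Keap1 at 17.01 CPM per kb. The inducible haem oxygenase Hmox1, at 5.04 CPM per kb, was below the constitutive Hmox2, at 34.5 CPM per kb. These levels rank the genes within this tissue and carry no test.

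Some NRF2 targets among the members were higher with tamoxifen in both sexes, while Hmox1, Gclc and Nfe2l2 itself were called in neither. The wider targets did not share a direction. Of 26 tested other NRF2 targets, 4 rose and 4 fell in females, and 4 rose and 14 fell in males. In females 13 of the 35 members were called (27.5% of all tested genes were), 11 higher and 2 lower, where 15.2% and 12.3% of all genes were. The median change was 0.05 over the members and 0.0056 over all genes. In males 27 of 35 were called, 15 higher and 12 lower, where 70% of all genes were called, 32.2% higher and 37.8% lower. The share in males is near that background. Of the inducible targets and haem oxygenases, 5 of 6 rose in each sex: Nqo1, Srxn1, Osgin1, Pgd and Hmox2.

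Nqo1 (chr8:107388225-107403206) is a quinone reductase often read as an indicator of NRF2 activity. With all libraries it changed most with tamoxifen in each sex among the members. Its level ran from 57.4 through a median of 70.9 to 99.2 CPM in vehicle females and from 86.8 through 118 to 140 CPM in tamoxifen females. In vehicle males it ran from 31.1 through 76.7 to 99.3 CPM, and in tamoxifen males from 79.9 through 115 to 155 CPM. The female groups overlapped little, as 2 of 24 tamoxifen libraries lay within the vehicle range, and 7 of 24 did in males. The lowest tamoxifen library of each sex (86.8 CPM in females, 79.9 CPM in males) had Arntl well below its pair. Nqo1 in those pairs was 130 and 140 CPM. The male library also held 471 CPM of Myl7. In the next lowest libraries (87.5 CPM in females, 82.8 CPM in males) Arntl was near its pair. It was 21.1 against 19.8 CPM and 31.0 against 31.7 CPM. Tamoxifen male libraries low in Arntl at ct 38, 54 and 58 held 99.6, 92.4 and 106 CPM of Nqo1. Their pairs held 139, 119 and 155 CPM. The bearing of Arntl and of Myl7 on Nqo1 was not tested. Nqo1 rose by 0.68 ± 0.07 in females (adjusted p = 7.48e-13) and 0.69 ± 0.07 in males (adjusted p = 2.14e-13), at 12 of 12 times in each sex. Leaving out the 10 high-TEC vehicle male libraries, the rise in males was 0.45 (adjusted p = 2.80e-07). Nqo1 averaged 84.1 CPM in the other 14 vehicle male libraries and 115 CPM in tamoxifen males. Mgst1 averaged 60.3 and 42.7 CPM in the same libraries, a larger step on the log2 scale. The first rank of Nqo1 in males therefore rests on those 10.

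Srxn1, which restores overoxidized peroxiredoxins, was raised at 12 of 12 times in females, with a log2 change of 0.31 ± 0.04 (adjusted p = 4.13e-09). Its log2 change in males was 0.24 ± 0.04 (adjusted p = 6.05e-07), in that direction at 11 of 12 times. Gsr, the reductase that returns oxidized glutathione to its reduced form, rose by 0.25 ± 0.04 in females (adjusted p = 4.27e-08) and 0.26 ± 0.04 in males (adjusted p = 2.47e-09). Pgd, an enzyme of the pentose phosphate pathway that supplies NADPH, rose by 0.16 ± 0.03 and 0.14 ± 0.03, at 12 of 12 times in each sex. These are small steps: the mean of Pgd went from 36.7 ± 1.91 to 41.0 ± 3.24 CPM in females (SD, n = 24 libraries), and 11 of 24 tamoxifen libraries lay within the vehicle range. Leaving out the 10 vehicle male libraries, Srxn1 rose by 0.16 and Gsr by 0.23 in males, both still called, and Pgd by 0.07, not called.

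Osgin1, a growth inhibitor induced by oxidative stress, was the least abundant member. It ran from 2.35 through a median of 4.99 to 7.53 CPM in vehicle females, 3.38 through 5.04 to 8.20 CPM in vehicle males, 1.92 through 5.60 to 11.2 CPM in tamoxifen females and 3.31 through 6.43 to 9.64 CPM in tamoxifen males. The 4 ranges overlap widely. The rise was 0.31 ± 0.10 in females (adjusted p = 0.00893) and 0.22 ± 0.10 in males (adjusted p = 0.0342), and in males it was not called without the 10 libraries (0.23) nor after leaving out any of 6 single times. Hmox2 rose by 0.13 ± 0.05 in females and 0.20 ± 0.05 in males. Of its exon bases 40.2% are shared with Cdip1 on the other strand, and the strand used in counting is not stated. Its call was lost in females without the libraries high in Myl7 (0.09) and in males without the 10 libraries (0.04).

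Hmox1, the stress-inducible enzyme that breaks down haem, was the target of this group that did not pass the test. Its lowest, median and highest levels were 4.22, 8.82 and 16.3 CPM in vehicle females and 5.19, 8.15 and 13.2 CPM in tamoxifen females. In males they were 5.96, 8.94 and 17.98 CPM with vehicle and 5.24, 8.26 and 14.6 CPM with tamoxifen. The groups cover the same range, with differences of -0.16 ± 0.08 in females and -0.07 ± 0.08 in males.

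**Figure D1:**
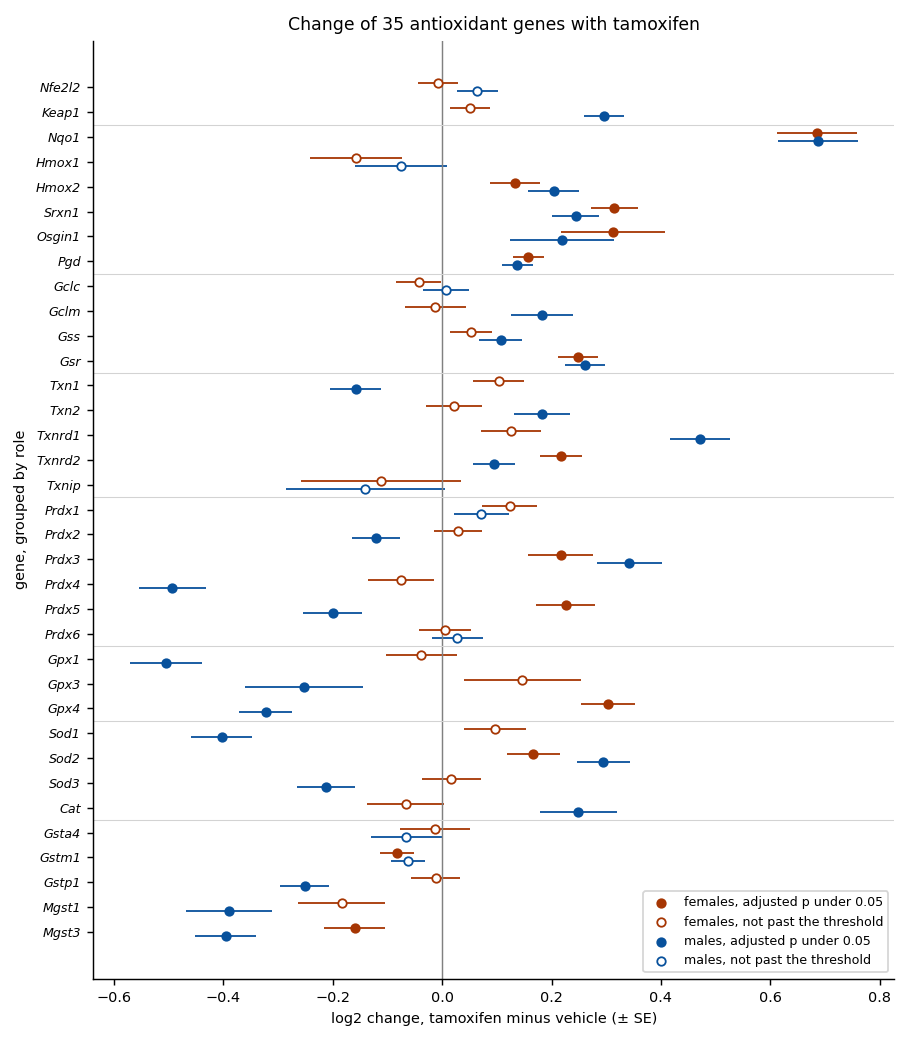
Log2 change with tamoxifen (x axis) of each of the 35 members, grouped by role, in females (red-brown) and males (blue). Bars are standard errors and filled points have an adjusted p under 0.05; Nqo1 lies furthest to the right in each sex, and Gpx4 and Prdx5 lie on opposite sides of 0 in the sexes.

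Nfe2l2 (chr2:75675513-75704641) ranged from 71.0 through a median of 93.1 to 118 CPM in vehicle females and from 72.3 through 93.6 to 109 CPM in tamoxifen females. In males the range was 68.9 through 87.2 to 111 CPM with vehicle and 78.7 through 91.4 to 118 CPM with tamoxifen. The 4 groups overlap almost wholly, and the tamoxifen effect was -0.0074 ± 0.04 in females (adjusted p = 0.907) and 0.06 ± 0.04 in males (adjusted p = 0.109).

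Keap1 (chr9:21229730-21239361) ran from 72.6 through 79.5 to 92.8 CPM in vehicle females, 48.6 through 72.1 to 89.1 CPM in vehicle males, 71.1 through 83.6 to 91.5 CPM in tamoxifen females and 78.5 through 85.3 to 99.9 CPM in tamoxifen males. Vehicle males reached lower than the other groups. Keap1 rose by 0.30 ± 0.04 with tamoxifen in males (adjusted p = 3.46e-11), at 12 of 12 times, and its change of 0.05 ± 0.04 in females was not called. Without the 10 libraries the rise in males was 0.14, still called. Of its exon bases 10.9% are shared with Gm16754 on the other strand.

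Of the other genes of glutathione synthesis, 2 more rose in males and none besides Gsr was called in females. Gclm (chr3:122245557-122270732), the modifier subunit of the rate-limiting enzyme, ran from 31.9 through 38.2 to 58.5 CPM in vehicle females, 25.6 through 34.3 to 46.1 CPM in vehicle males, 28.0 through 38.6 to 65.8 CPM in tamoxifen females and 29.3 through 38.2 to 58.9 CPM in tamoxifen males. Its rise of 0.18 ± 0.06 in males (adjusted p = 0.00289) fell to 0.05, not called, without the 10 libraries. Gss, glutathione synthetase, rose by 0.11 ± 0.04 in males and by 0.01, not called, without them. The catalytic subunit Gclc changed by -0.04 ± 0.04 and 0.0078 ± 0.04 in females and males, neither called.

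In the thioredoxin system the mitochondrial reductase Txnrd2 rose in each sex, by 0.22 ± 0.04 in females (adjusted p = 3.16e-06, 12 of 12 times) and 0.10 ± 0.04 in males (adjusted p = 0.0226), the latter 0.01 and not called without the 10 libraries. The cytosolic reductase Txnrd1 ran from 44.3 through 74.6 to 87.8 CPM in vehicle females, 36.4 through 57.3 to 79.6 CPM in vehicle males, 71.4 through 78.7 to 89.5 CPM in tamoxifen females and 59.3 through 81.1 to 89.4 CPM in tamoxifen males. Vehicle males stood below the rest, and 9 of 24 tamoxifen male libraries lay within their range. Txnrd1 rose by 0.47 ± 0.06 in males (adjusted p = 6.36e-12), at 12 of 12 times, and by 0.26 without the 10 libraries, while 0.13 ± 0.05 in females was not called. Cytosolic thioredoxin Txn1 fell by 0.16 ± 0.05 on the log2 scale in males, and this call was lost after a correction for gene length and GC content (-0.02). Mitochondrial Txn2 rose by 0.18 ± 0.05 in males, but the sign turned to -0.034 without the 10 libraries. Txnip, which binds and inhibits thioredoxin and responds to glucose, varied most between libraries, from 245 to 1359 CPM, and was called in none of the 5 comparisons of means. Of its exon bases 19.4% are shared with Gm15441 on the other strand.

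Among the peroxiredoxins, mitochondrial Prdx3 rose by 0.22 ± 0.06 in females (adjusted p = 0.00328, 12 of 12 times) and 0.34 ± 0.06 in males (adjusted p = 5.17e-07), the latter 0.09 and still called without the 10 libraries. Sod2, the superoxide dismutase of the mitochondrial matrix, moved the same way, by 0.17 ± 0.05 and 0.29 ± 0.05, with 0.10 in males without the 10 libraries. Prdx1 and Prdx6 were called in neither sex. Without the 10 libraries Prdx6, which moved by 0.03 in males with them, was called at -0.15.

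Several other enzymes that act on peroxides and superoxide were lower in tamoxifen males than in vehicle males. Markers of some other cell types fell there too: 10 of 10 endothelial, 7 of 12 macrophage, 3 of 3 tested neutrophil, 3 of 3 tested lymphocyte and 2 of 6 erythroid. Of all genes 37.8% were lower. Of 8 mural markers 3 fell and 2 rose, of 8 fibroblast markers 1 fell, and of 10 heart muscle markers 4 fell and 5 rose. Summed, the endothelial markers ran from 1646 to 4160 CPM in vehicle males and 1500 to 1986 CPM in tamoxifen males, and the neutrophil markers from 2.48 to 65.6 CPM and 1.58 to 8.07 CPM. In females 2 endothelial, 7 macrophage, 2 mural and 0 of the neutrophil, lymphocyte and erythroid markers fell, where 12.3% of all genes were lower. There 5 of 8 fibroblast markers rose. The part of these cells in the results was not tested. All 3 glutathione peroxidases fell in males. Gpx1 (chr9:108338903-108340343), the cytosolic and mitochondrial form, ran from 49.1 through 82.7 to 111 CPM in vehicle males and from 43.0 through 54.6 to 74.0 CPM in tamoxifen males. In females it ran from 44.7 through 58.1 to 89.5 CPM with vehicle and from 44.6 through 54.03 to 89.6 CPM with tamoxifen. The highest vehicle male library lies above every library of the other groups, and the fall was 0.51 ± 0.07 on the log2 scale in males (adjusted p = 1.67e-10, lower at 12 of 12 times) against -0.04 ± 0.07 in females, not called. Gpx1 averaged 87.7 CPM in the 10 high-TEC vehicle male libraries, 73.6 CPM in the other 14 and 55.7 CPM in tamoxifen males.

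Gpx4 (chr10:80047166-80056439), which reduces lipid peroxides in membranes, moved in opposite directions in the sexes. Its level ran from 260 through 330 to 506 CPM in vehicle females, 339 through 507.3 to 662 CPM in vehicle males, 348 through 416 to 496 CPM in tamoxifen females and 354 through 396 to 502.4 CPM in tamoxifen males. The vehicle groups sat apart at their medians, while the tamoxifen groups lay between them and close together. Gpx4 rose by 0.30 ± 0.05 in females (adjusted p = 4.97e-07), at 11 of 12 times, and fell by 0.32 ± 0.05 on the log2 scale in males (adjusted p = 1.67e-08), lower at 9 of 12. The fall was also 0.32 without the 10 libraries, and 0.17, still called, after the length and GC correction. Gpx3, the secreted form, fell by 0.25 ± 0.11 on the log2 scale in males (adjusted p = 0.032), and this call was lost without the 10 libraries at a change of the same size (-0.24).

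Sod1 (chr16:90220754-90226329), the copper-zinc dismutase of the cytosol, ran from 145 through 169 to 296 CPM in vehicle females and from 180 through 274 to 383 CPM in vehicle males. With tamoxifen it ran from 168 through 189 to 239 CPM in females and from 164 through 197 to 264 CPM in males. Vehicle males again stood highest. Sod1 fell by 0.40 ± 0.06 on the log2 scale in males (adjusted p = 1.68e-09), and by 0.31 without the 10 libraries, while 0.10 ± 0.06 in females was not called. Extracellular Sod3 fell by 0.21 ± 0.05 on the log2 scale in males.

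Prdx5 (chr19:6906697-6910106), a peroxiredoxin of mitochondria, peroxisomes and cytosol, ran from 214 through 268 to 473 CPM in vehicle females, 286 through 395 to 555.3 CPM in vehicle males, 275 through 328 to 407.8 CPM in tamoxifen females and 282 through 336 to 453.1 CPM in tamoxifen males. Like Gpx4 it rose in females, by 0.23 ± 0.05 (adjusted p = 0.000673), and fell in males, by 0.20 ± 0.05 on the log2 scale (adjusted p = 0.000764), the latter -0.09 and not called after the length and GC correction. Of its exon bases 19.1% are shared with Trmt112 on the other strand. Prdx4 (chrX:155323918-155340754), the peroxiredoxin of the endoplasmic reticulum, ran from 14.4 through 21.3 to 30.5 CPM in vehicle males and from 10.2 through 14.8 to 21.6 CPM in tamoxifen males, a fall of 0.49 ± 0.06 on the log2 scale (adjusted p = 2.94e-11, lower at 12 of 12 times). In females it ran from 14.6 through 16.96 to 26.2 CPM with vehicle and 9.74 through 16.8 to 21.99 CPM with tamoxifen, a change of -0.07 ± 0.06 that was not called. Prdx2, abundant in red cells, fell by 0.12 ± 0.04 on the log2 scale in males, a change of -0.21 without the 10 libraries.

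Catalase (Cat, chr2:103453849-103485160), the peroxisomal enzyme that splits hydrogen peroxide, ran from 194 through 268 to 323 CPM in vehicle females, 106 through 256 to 347 CPM in vehicle males, 197 through 258 to 345 CPM in tamoxifen females and 240 through 279 to 339 CPM in tamoxifen males. Vehicle males included libraries far below the other groups: the 10 libraries high in TEC counts averaged 169 ± 34.6 CPM (SD, n = 10) and the other 14 averaged 292 ± 32.7 CPM (SD, n = 14). The rise of 0.25 ± 0.07 in males (adjusted p = 0.00114) turned to -0.029, not called, without those 10, so its direction rests on them.

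The glutathione S-transferases, which conjugate glutathione to electrophiles, held no member that rose. In females Mgst3 fell by 0.16 ± 0.06 and Gstm1 by 0.08 ± 0.03 on the log2 scale. Males had 3 of 5 lower: Mgst3 (-0.40 ± 0.06), Mgst1 (-0.39 ± 0.08) and Gstp1 (-0.25 ± 0.05). Gsta4, which acts on the lipid aldehyde 4-hydroxynonenal, moved by -0.01 ± 0.06 in females and -0.07 ± 0.06 in males, neither called, and by -0.25, called, in males without the 10 libraries.

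**Figure D2:**
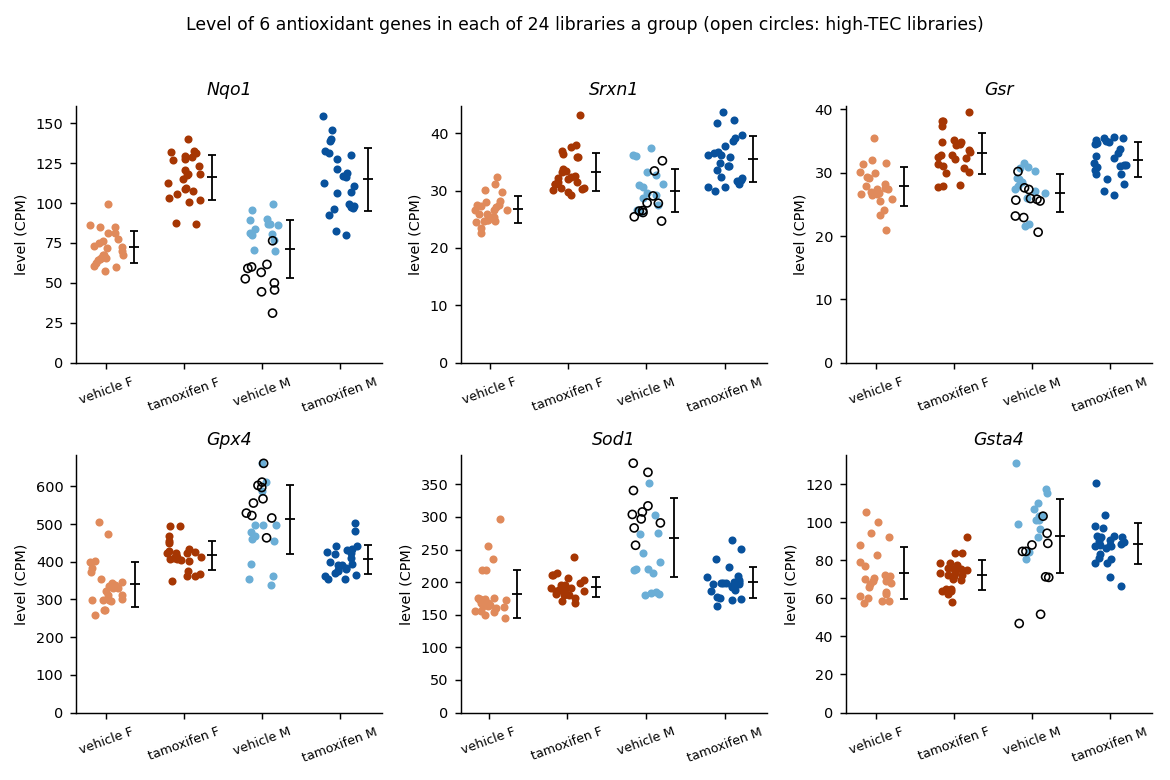
TMM-scaled CPM (y axis) of Nqo1, Srxn1, Gsr, Gpx4, Sod1 and Gsta4 in each of the 96 libraries of the 4 groups, with mean and SD bars (24 libraries each); open circles are the 10 high-TEC libraries of vehicle males. Nqo1, Srxn1 and Gsr lie higher with tamoxifen in each sex, and Gpx4 and Sod1 are highest in vehicle males.

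The 10 vehicle male libraries bear on the males' counts as a whole. Without them 21 of the 35 members were called with tamoxifen in males, 7 higher and 14 lower, where 6652 of 15745 tested genes were called. Those kept with the same sign under each of the 27 alternatives run for this comparison numbered 15 of 27: Nqo1, Srxn1, Gsr, Txnrd1, Keap1, Prdx3 and Sod2 higher, and Gpx1, Gpx4, Sod1, Sod3, Prdx4, Gstp1, Mgst1 and Mgst3 lower. In females 7 of 13 were kept under the 27 run there: Nqo1, Srxn1, Gsr, Pgd, Txnrd2, Gpx4 and Prdx5, all higher. Scaling by library size alone gave 10 higher and 14 lower in males. It moved the median change of all genes in males from -0.05 to -0.14, and no called member changed sign under it.

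The response to tamoxifen differed between the sexes for a set of peroxide and superoxide enzymes, and not detectably for Nqo1, Srxn1 or Gsr. The interaction, the female-minus-male difference with tamoxifen minus that with vehicle, was called for 16 of 35 members (52.3% of all genes were called), 12 positive and 4 negative, where 27% and 25.4% of all genes were. The members' share is not above the background. It was 0.63 ± 0.07 for Gpx4 (adjusted p = 1.50e-10), 0.50 ± 0.08 for Sod1 (adjusted p = 6.80e-07), 0.47 ± 0.09 for Gpx1, 0.43 ± 0.08 for Prdx5 and 0.42 ± 0.09 for Prdx4. The negative ones were Txnrd1 (-0.34 ± 0.08), Cat (-0.32 ± 0.10), Keap1 (-0.25 ± 0.05) and Gclm (-0.20 ± 0.08), where the change with tamoxifen was the more positive in males. For Nqo1 it was -0.0019 ± 0.10 (adjusted p = 0.989), for Gsr -0.01 ± 0.05 and for Srxn1 0.07 ± 0.06. Without the 10 libraries Nqo1 reached 0.23 (adjusted p = 0.0354), Cat (-0.04), Txnrd1 (-0.14) and Gclm (-0.07) were no longer called, and Keap1 was -0.09, still called. In that setting 18 members were called, where 4500 of 15745 tested genes were. Gpx1, Gpx4, Keap1, Prdx4, Prdx5 and Sod1 were called under every alternative run.

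In vehicle hearts the sexes differed in 23 of 35 members (68.3% of all genes were called). Vehicle females and males also had separate ranges of title numbers, so sex and range cannot be told apart here. Females were higher in 6 and lower in 17, where 31.8% and 36.5% of all genes were. The median difference, female minus male, was -0.09 over the members and -0.03 over all genes. All 5 glutathione S-transferases, 4 of 6 peroxiredoxins and 2 of 3 glutathione peroxidases were lower in females. The largest differences were those of Gpx4 (-0.59 ± 0.05, adjusted p = 1.16e-17), Sod1 (-0.55 ± 0.06, adjusted p = 6.37e-14), Prdx5 (-0.48 ± 0.05, adjusted p = 1.79e-12), Mgst1 (-0.46 ± 0.08) and Gpx1 (-0.42 ± 0.07). Gpx4, Sod1 and Prdx5 were each lower in females at 11 of 12 times, and 10, 5 and 6 of the 24 vehicle female libraries lay within the male range. The median of vehicle females for each of these genes was below the lowest vehicle male library, apart from Gpx1 and Mgst1.

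Females were higher in Txnrd1 (0.35 ± 0.06, adjusted p = 4.09e-08), Gclm (0.21 ± 0.06), Keap1 (0.19 ± 0.04), Cat (0.16 ± 0.07), Txn2 (0.11 ± 0.05) and Nfe2l2 (0.09 ± 0.04, adjusted p = 0.0286). Of these Txnrd1 was called under every alternative run, but its difference was 0.15 (adjusted p = 0.0103) without the 10 vehicle male libraries. Without them Gclm (0.09), Keap1 (0.04) and Nfe2l2 (0.10) were not called, and Cat (-0.11) and Txn2 (-0.10) turned to lower in females. Nqo1, at 0.02 ± 0.07 with all libraries, became -0.21 (adjusted p = 0.00841), and 25 members were then called, 2 higher and 23 lower, where 7347 of 15745 tested genes were called. The remaining members lower in females were Sod3 (-0.38 ± 0.05), Gsta4 (-0.34 ± 0.06), Mgst3 (-0.30 ± 0.06), Prdx4 (-0.27 ± 0.06), Txn1 (-0.23 ± 0.05), Prdx2 (-0.22 ± 0.04), Osgin1 (-0.21 ± 0.10), Srxn1 (-0.16 ± 0.04), Gstp1 (-0.16 ± 0.05), Txnrd2 (-0.14 ± 0.04), Prdx6 (-0.12 ± 0.05) and Gstm1 (-0.09 ± 0.03). Without the 10 libraries Prdx4 (-0.16, adjusted p = 0.0785) and Osgin1 (-0.20, adjusted p = 0.187) were not called, and Gsta4 (-0.52), Prdx6 (-0.29) and Txnrd2 (-0.21) lay further apart.

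Gene length moved with this difference. The 17 members lower in females had a median exon length of 2106 bp, the 6 higher ones 4450.5 bp and the 12 not called 2898.5 bp. After a correction for length and GC content Gpx4 was -0.42, Gpx1 -0.23, Mgst3 -0.13 and Txn1 -0.07, all still called, and Gstp1 (0.0087) and Gstm1 (0.07) were not called and had turned sign. The part of length, and of the endothelial and erythroid markers that were higher in vehicle males, in the sex difference of the members was not tested further.

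**Figure D3:**
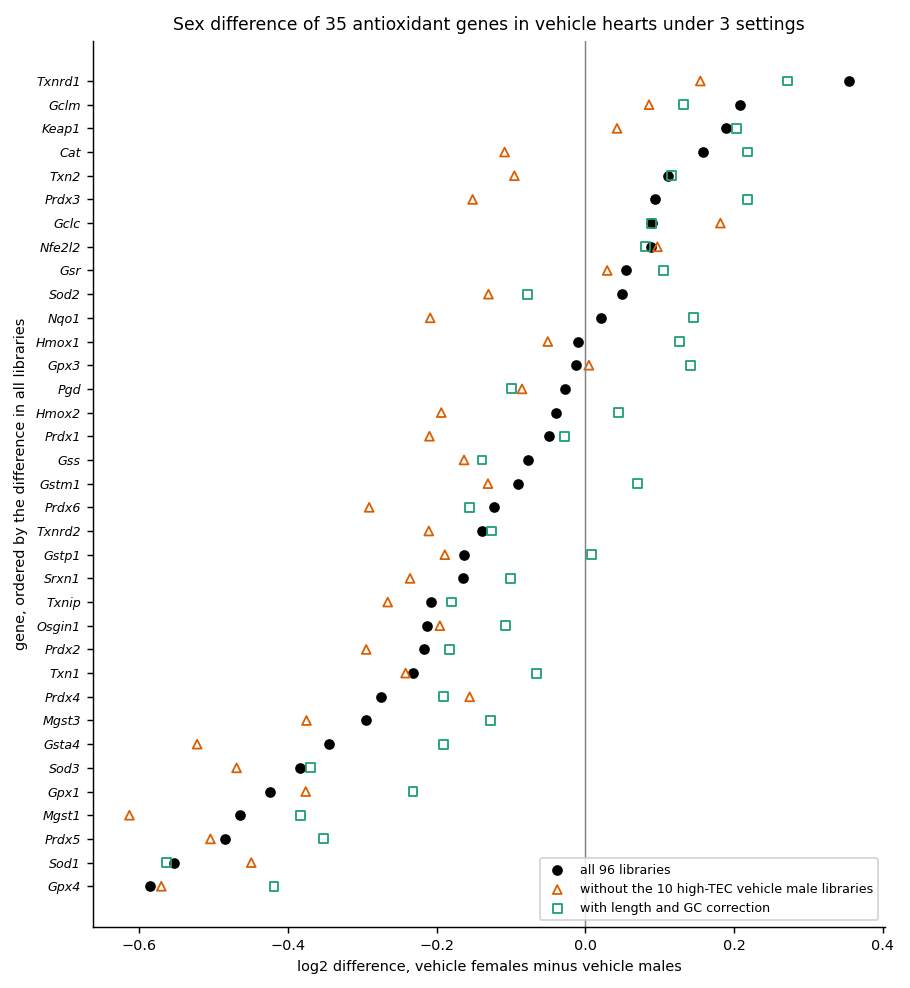
Log2 difference between vehicle females and vehicle males (x axis) of the 35 members in all 96 libraries (black dots), without the 10 high-TEC libraries of vehicle males (triangles) and after a correction for gene length and GC content (squares). Gpx4, Sod1 and Prdx5 lie well below 0 under each of the 3, while Cat and Nqo1 cross to the other side without the 10 libraries.

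In tamoxifen hearts 6 of 35 members differed between the sexes (7.68% of all genes were called), 1 higher and 5 lower in females, where 4.08% and 3.6% of all genes were. The transferases made up 3 of the 6. Gsta4 differed by -0.29 ± 0.06 (adjusted p = 0.000866), lower in females at 12 of 12 times, next to -0.34 in vehicle hearts, and its interaction of 0.05 ± 0.09 was not called. Mgst1 differed by -0.26 ± 0.08 and Gstm1 by -0.11 ± 0.03. Prdx6 (-0.15 ± 0.05) and Gss (-0.13 ± 0.04) were also lower. Gpx3 was higher in females by 0.39 ± 0.11 (adjusted p = 0.013). That value included the library labelled tamoxifen female at ct 54 with little Xist, which had 585 CPM of Gpx3 against a group median of 225, and without it the difference was 0.28 (adjusted p = 0.0569). The same library held 724 CPM of the atrial gene Myl7, and in each of the 4 groups the library highest in Gpx3 was the one highest in Myl7. Without the libraries over 20 CPM of Myl7 the difference in Gpx3 was 0.37 (adjusted p = 8.64e-05). None of the 6 held under every alternative run.

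Across the day, fewer members passed the test for a rhythm with tamoxifen than with vehicle, and the share of all genes that passed fell too. Nfe2l2, Osgin1, Hmox1 and Gclm passed in tamoxifen females, tamoxifen males or both. The direct test of a rhythm change with tamoxifen, given below, called 0 of 35 members in females (9 at an unadjusted p under 0.05). In males it called 6, and 0 once the 10 high-TEC libraries were left out (9 unadjusted). A 24 h rhythm was called for 18 of 35 members in vehicle females (34.5% of all genes were called) and 14 in vehicle males (55.2%). It was called for 5 in tamoxifen females (17.1%) and 3 in tamoxifen males (8.03%). Amplitudes below are mean-to-peak on the log2 scale, and peak times are circadian hours. The median amplitude in vehicle females was 0.16 over the members and 0.15 over all genes, in vehicle males 0.11 and 0.20, in tamoxifen females 0.06 and 0.12, and in tamoxifen males 0.06 and 0.10.

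Nfe2l2 peaked in the subjective night. In vehicle females its 2 libraries per time averaged 109 CPM at ct 18 and 38 and 110 at ct 62, against 76.8 at ct 26 and 74.0 at ct 50. The amplitude was 0.25 ± 0.04 with a peak at ct 15.2 (adjusted p = 7.09e-07), which is a 1.41-fold swing. It was 0.16 ± 0.04 at ct 14.5 in vehicle males and 0.17 ± 0.04 at ct 15.8 in tamoxifen females, both called. In tamoxifen males 0.08 ± 0.04 was not called (adjusted p = 0.393), but without the library labelled tamoxifen male at ct 54 that stood apart the amplitude was 0.12 (adjusted p = 0.0366). The rhythm was called in vehicle females and in tamoxifen females under every alternative run.

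Osgin1 swung with nearly the same timing and a larger amplitude. Its means in vehicle females were 2.84 CPM at ct 30 and 2.78 at ct 54, against 6.24 at ct 38 and 7.47 at ct 62. The amplitude was 0.56 ± 0.10 in vehicle females (peak ct 15.8, adjusted p = 2.91e-05), 0.35 ± 0.10 in vehicle males (ct 15.8) and 0.56 ± 0.09 in tamoxifen females (ct 16.2, adjusted p = 2.01e-05). In each female group that is a 2.16-fold swing. In tamoxifen males it was 0.31 ± 0.09 at ct 15.8 (adjusted p = 0.0543) and was called without the library that stood apart (0.37, adjusted p = 0.0156).

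Hmox1 was called rhythmic in all 4 groups with all libraries. None of the rhythm calls given here for Hmox1, Gclm, Gclc and Gsr held under every alternative run. Its amplitude was 0.28 ± 0.08 in vehicle females (peak ct 10.7), 0.36 ± 0.08 in vehicle males (ct 13.3), 0.32 ± 0.08 in tamoxifen females (ct 11.5) and 0.41 ± 0.08 in tamoxifen males (ct 11.4, adjusted p = 0.00152). Gclm had an amplitude of 0.23 ± 0.06 in vehicle females (ct 10), 0.27 ± 0.06 in tamoxifen females (ct 11.3) and 0.33 ± 0.06 in tamoxifen males (ct 13.5, adjusted p = 9.11e-05). In vehicle males Gclm was flat by this measure at 0.04 ± 0.06, not called. Its partner Gclc was called in vehicle females (0.13 ± 0.04) and tamoxifen males (0.17 ± 0.04). Gsr peaked on the other side of the day, at ct 1.3 in vehicle females, ct 2.1 in vehicle males and ct 2.5 in tamoxifen females, with amplitudes of 0.16, 0.13 and 0.13.

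**Figure D4:**
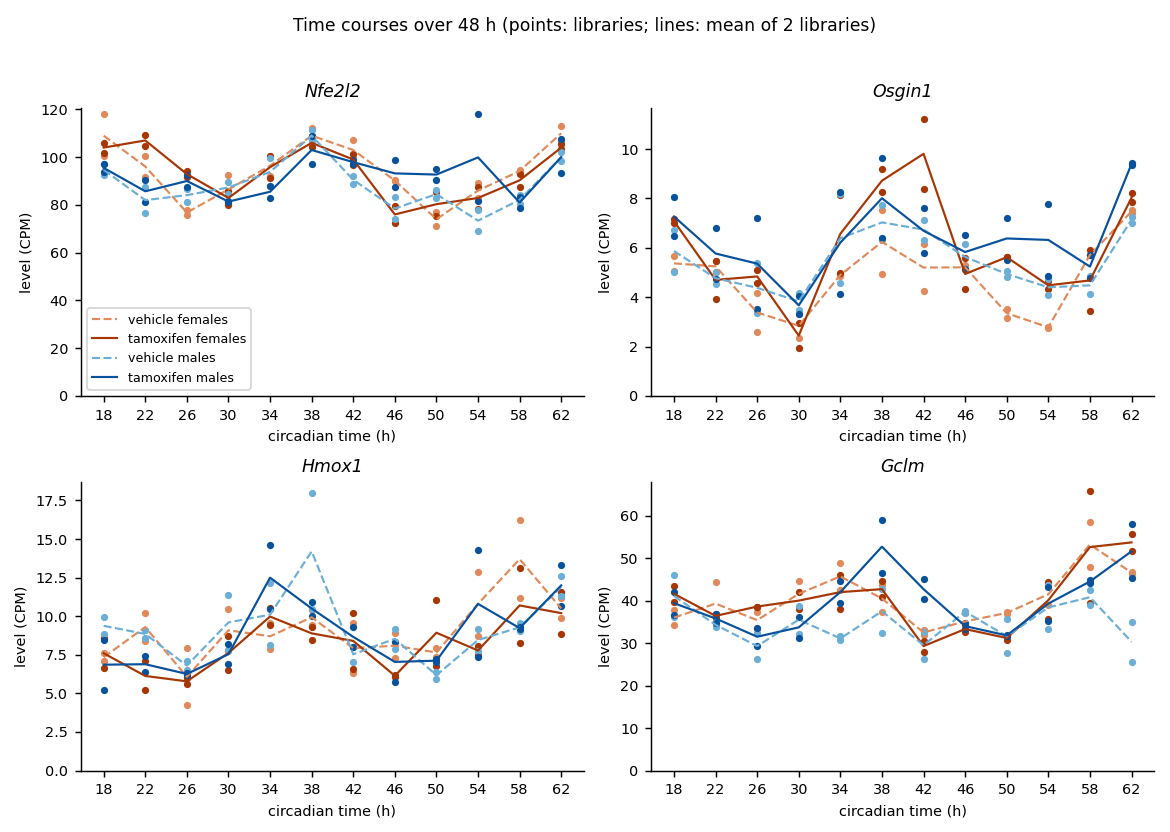
TMM-scaled CPM (y axis) of Nfe2l2, Osgin1, Hmox1 and Gclm against circadian time (x axis, h) in the 4 groups; points are libraries and lines join the means of 2. Nfe2l2 and Osgin1 rise to ct 38 and ct 62 in vehicle females, and Gclm has a rhythm amplitude of 0.04 in vehicle males against 0.23 in vehicle females.

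The other 13 members called in vehicle females were Hmox2, Txn1, Txnrd2, Prdx1, Prdx2, Prdx5, Prdx6, Gpx1, Gpx4, Sod1, Gsta4, Mgst3 and Gclc, all but Gclc with a peak from ct 14.2 to ct 17.6. Amplitudes were 0.21 ± 0.05 for Gpx4 (ct 15.8), 0.22 ± 0.06 for Sod1 (ct 17.1), 0.24 ± 0.05 for Prdx5 (ct 16.6) and 0.22 ± 0.07 for Gpx1 (ct 16.9). Both libraries at ct 42 stood high, at 506 and 473 CPM for Gpx4, 296 and 255 for Sod1 and 473 and 403.9 for Prdx5. Without ct 42 only 5 members were called in vehicle females, and Gpx4 (0.13), Sod1 (0.11), Prdx5 (0.14) and Gpx1 (0.12) were not. The rhythm of these 4 genes in vehicle females therefore rests on that time.

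In vehicle males the fitted peaks of the same 4 genes were hours earlier than in vehicle females, where they rest on ct 42. Gpx4 had an amplitude of 0.27 ± 0.05 (ct 10.2), Sod1 0.32 ± 0.06 (ct 10.6), Prdx5 0.24 ± 0.05 (ct 10.2) and Gpx1 0.21 ± 0.07 (ct 10.8), along with Prdx4 at 0.30 ± 0.06 (ct 9.6) and Txn1 at 0.13 ± 0.05 (ct 11.6). Cat (0.26 ± 0.07, ct 21.7), Txnrd1 (0.26 ± 0.06, ct 22.8), Nqo1 (0.20 ± 0.07, ct 21.6) and Prdx3 (0.20 ± 0.06, ct 22.2) peaked on the other side of the day. The 10 high-TEC libraries lie between ct 26 and ct 42 and between ct 54 and ct 62, with both libraries at ct 30 and at ct 34. Without them 6 members were called in vehicle males, and Cat (0.07), Txnrd1 (0.14), Nqo1 (0.05), Prdx3 (0.05), Prdx4 (0.21), Txn1 (0.12), Osgin1 (0.31) and Gpx1 (0.23) were not, while Gpx4, Sod1 and Prdx5 still were.

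The rhythms of the sexes differed in vehicle hearts for 12 of 35 members (37.4% of all genes were called). The length of the difference of the 2 rhythms, which has no sign, was 0.42 ± 0.10 for Cat, 0.41 ± 0.08 for Sod1 (adjusted p = 0.000245), 0.36 ± 0.08 for Prdx5 (adjusted p = 0.000752) and 0.32 ± 0.07 for Gpx4 (adjusted p = 0.000812). Prdx5 and Gpx4 held under every alternative run, and Cat did not hold without the 10 libraries (0.22). In tamoxifen hearts edgeR called 0 of 35 (0.0384% of all genes were called), with 0 at an unadjusted p under 0.05 and 0 by DESeq2.

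A change of rhythm with tamoxifen was called by edgeR for 0 of 35 members in females (0.237% of all genes were called), with 9 at an unadjusted p under 0.05 and 0 by DESeq2. In males it was called for 6 (20.7% of all genes were called): Sod1 (0.32 ± 0.08, adjusted p = 0.00864), Cat (0.31 ± 0.10), Gclm (0.29 ± 0.08), Gpx4 (0.26 ± 0.07), Txnrd1 (0.25 ± 0.08) and Prdx5 (0.25 ± 0.08). Each had a smaller amplitude with tamoxifen, except Gclm, whose amplitude was larger. Without the 10 vehicle male libraries 0 of 35 were called, with 9 at an unadjusted p under 0.05, and without ct 34 also 0, with 7. DESeq2 on all libraries called 6.

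**Figure D5:**
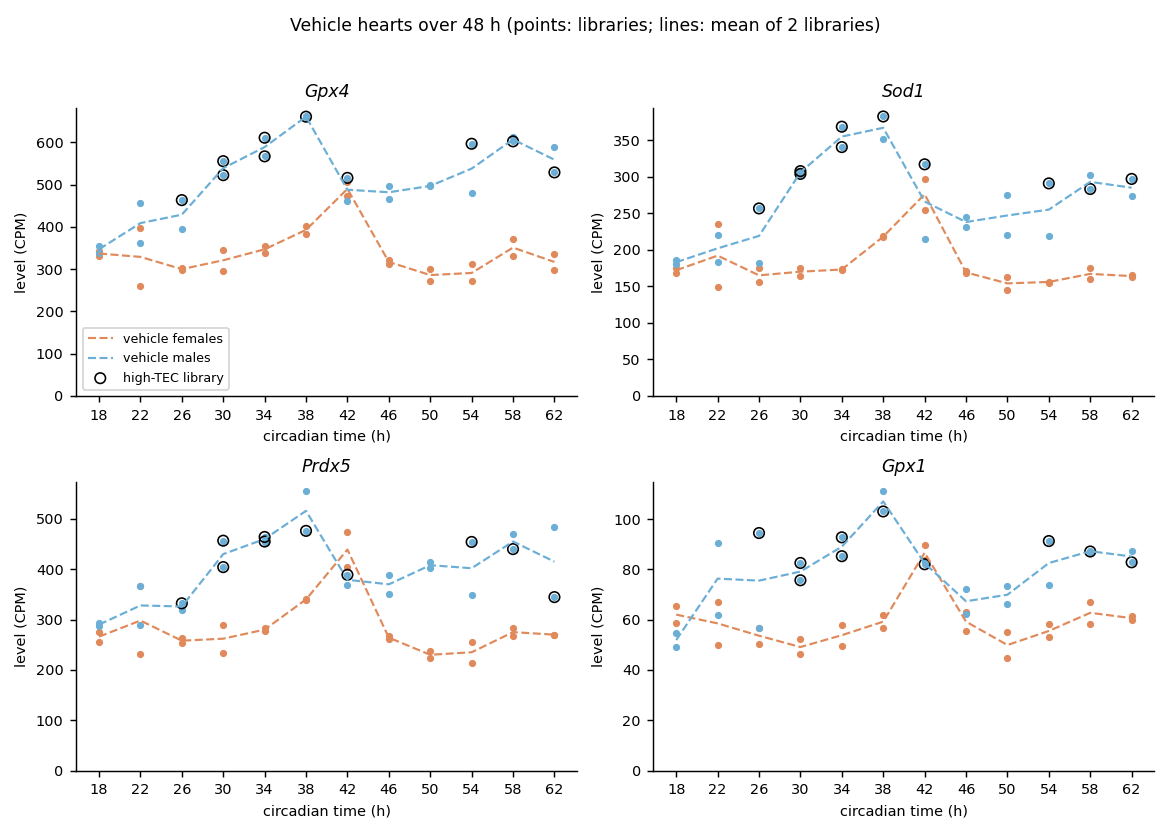
TMM-scaled CPM (y axis) of Gpx4, Sod1, Prdx5 and Gpx1 against circadian time (x axis, h) in vehicle females and vehicle males; points are libraries, lines join the means of 2, and circles mark the 10 high-TEC libraries of vehicle males. Vehicle females rise at ct 42, where 2 libraries of Gpx4 reach 506 and 473 CPM.

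Related genes outside the 35 were counted in 4 lists. Of 12 regulators and partners of NRF2, 3 rose and 1 fell with tamoxifen in females, and 5 rose and 3 fell in males. Park7, which stabilizes NRF2, rose by 0.19 ± 0.05 in females, Btrc, an adaptor of a ligase that degrades NRF2, by 0.17 ± 0.05, and Bach1, a repressor at AREs, fell by 0.12 ± 0.05 on the log2 scale. In males the related factor Nfe2l1 rose by 0.55 ± 0.06 and Gsk3b by 0.43 ± 0.05, and the small Maf protein Maff fell by 0.55 ± 0.10 and the ligase subunit Rbx1 by 0.20 ± 0.04 on the log2 scale.

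Of 26 tested other NRF2 targets, 4 rose and 4 fell in females, and 4 rose and 14 fell in males. That is 30.8% and 69.2% called, next to 27.5% and 70% of all genes. Gstm2 (0.35 ± 0.05) and malic enzyme Me1 (0.29 ± 0.08) rose in females, and Idh1 (-0.18 ± 0.06) and Abcc4 (-0.13 ± 0.05) were lower. In males Entpd5 (0.72 ± 0.07) and Me1 (0.66 ± 0.08) rose, and Blvrb (-0.52 ± 0.06) and Tkt (-0.49 ± 0.08) were lower. Over all 26 the median was 0.02 in females and -0.18 in males.

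Among 48 tested genes of other thiol and peroxide defence, 13 rose and 7 fell in females and 19 rose and 15 fell in males. Gstm7, a mu-class transferase, changed more than any of the 35 members, by 0.91 ± 0.07 in females (adjusted p = 9.63e-20) and 1.06 ± 0.07 in males (adjusted p = 2.15e-23). Msrb1 rose by 0.38 ± 0.06 in females and Sesn3 by 0.65 ± 0.07 in males. Gstt1 was lower in each sex (-0.44 ± 0.07 and -0.72 ± 0.07), as were Oplah in females (-0.56 ± 0.07) and Gstt2 in males (-0.64 ± 0.08). Transferases of the mu and theta classes come in families of similar sequence, and how the counting split shared reads is not stated.

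Of 12 oxidant producers, 1 rose and 5 fell in females and 1 rose and 6 fell in males. Maob, a monoamine oxidase of mitochondria, was lower in tamoxifen females (-0.41 ± 0.07). In males the NADPH oxidase subunits Cyba (-0.75 ± 0.07) and Ncf1 (-0.58 ± 0.08) were lower and Shc1 rose by 0.11 ± 0.03. Ncf1 and Cyba are also expressed by macrophages, whose 12 markers summed to a median of 465 CPM in vehicle males and 377 CPM in tamoxifen males, 7 of them lower with tamoxifen in each sex, and the part of macrophages in these changes was not tested.

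Between the sexes in vehicle hearts the regulators had 5 higher and 3 lower in females, the other targets 5 and 14, the thiol and peroxide genes 13 and 20 and the oxidant producers 2 and 6. The furthest apart were Sesn3 (0.67 ± 0.07), Nnt (0.59 ± 0.08), the mitochondrial enzyme that makes NADPH from NADH, Gsk3b (0.42 ± 0.05), Nfe2l1 (0.37 ± 0.06), Entpd5 (0.36 ± 0.07), Me1 (0.33 ± 0.08) and Maob (0.26 ± 0.07) on the female side. On the male side they included Gstt2 (-0.62 ± 0.08), Blvrb (-0.62 ± 0.06), Cyba (-0.55 ± 0.07), Maff (-0.49 ± 0.10), Selenom (-0.48 ± 0.07), Tkt (-0.47 ± 0.08) and Park7 (-0.42 ± 0.05). In tamoxifen hearts 4 of 26 targets, 5 of 48 thiol and peroxide genes and 2 of 12 oxidant producers were called, and the smallest adjusted p among the 12 regulators was that of Sqstm1 (0.55). Values there included Oplah (-0.27 ± 0.07), Maob (-0.25 ± 0.07), Idh2 (-0.17 ± 0.05), Slc48a1 (-0.14 ± 0.04), Ugdh (0.16 ± 0.05), Gpx8 (0.15 ± 0.04) and Txndc5 (0.13 ± 0.03).

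The interaction was called for 7 of 12 regulators, 14 of 26 targets, 26 of 48 thiol and peroxide genes and 5 of 12 oxidant producers, next to 52.3% of all genes. It was most positive for Blvrb (0.65 ± 0.09), Selenom (0.64 ± 0.10), Maff (0.60 ± 0.14), Cyba (0.52 ± 0.10), Gstt2 (0.49 ± 0.11), Tkt (0.49 ± 0.11), Park7 (0.39 ± 0.07) and Ncf1 (0.37 ± 0.11). It was most negative for Nnt (-0.60 ± 0.11), Maob (-0.52 ± 0.10), Entpd5 (-0.51 ± 0.10), Oxr1 (-0.50 ± 0.08), Nfe2l1 (-0.45 ± 0.09), Cul3 (-0.42 ± 0.09) and Me1 (-0.37 ± 0.11). Cul3 is the ligase subunit with which KEAP1 marks NRF2 for degradation.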

How the data were processed

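RNA of mouse ventricle was measured in 96 libraries, grouped by the sex and treatment in their titles and labels. The labels' protocols name an RNeasy kit for extraction, poly-A selected Illumina mRNA Prep libraries and a NovaSeq sequencer. The authors deposited raw counts per gene, without normalization. HISAT2, Picard and HTSeq and the builds GRCm38 and mm10 are named in the submitters' processing notes, with no version and no strand of counting stated. All 96 columns matched a single title, and 26 entries with the form of dates (0.134% of counts) were kept and are not named. Gene positions and exon lengths are from GENCODE M21 and promoter windows from RefSeq (GRCm38.p6).

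Genes were filtered with filterByExpr (minimum count 10) and scaled by TMM in edgeR 4.0.16 (R 4.3.3). A quasi-likelihood model of all libraries held a mean, a cosine and a sine (24 h) per group, with 84 residual degrees of freedom, and gave 5 comparisons of means and 8 of rhythms. P-values were adjusted over the 15629 tested genes within each comparison. The script recovered changes put into simulated counts. Those had the same spread for every gene and none of the library differences above, so they do not bear on calls that turn on such libraries. The 48 pairs of libraries of 1 group and time differed by more than sampling noise (chi-square per gene from 3.86 to 99.6), so none was counted as a duplicate. Depth limits Osgin1 most, at about 5.65 CPM.

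The members and lists were chosen with earlier results of these data known. Every member is named, with the lowest, median and highest library for those the results turn on, and from each related list the 2 highest and 2 lowest called genes of at least 5 CPM per comparison of means, except 1 gene that is not reported here. The 28 alternatives were library size alone, no or another low-count filter, leaving out each time, each 24 h alone, leaving out the libraries that stood apart, length and GC correction, other time terms, robust dispersion, fewer groups, a term for title number above 570 and DESeq2 1.42.0. The title-number term was run for the comparisons it could enter.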

Additional observations from a re-analysis of the deposited data

Results flagged for a closer look

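The tamoxifen effect differed between the sexes, by the interaction term of the edgeR model, for 16 members. The log2 change was more positive, or less negative, in females for Gpx4 (0.63), Sod1 (0.50), Gpx1 (0.47), Prdx5 (0.43), Prdx4 (0.42), Gpx3 (0.40), Txn1 (0.26), Gstp1 (0.24), Mgst3 (0.24), Sod3 (0.23), Prdx2 (0.15) and Txnrd2 (0.12). It was more positive in males for Txnrd1 (-0.34), Cat (-0.32), Keap1 (-0.25) and Gclm (-0.20).

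The 24 h rhythm differed between vehicle females and vehicle males, by a test of the cosine and sine terms together, for 12 members. The vector lengths on the log2 scale were 0.42 for Cat, 0.41 for Sod1, 0.36 for Nqo1, 0.36 for Prdx5, 0.35 for Prdx4, 0.32 for Txnrd1, 0.32 for Gpx4, 0.31 for Gpx1, 0.25 for Txn1, 0.24 for Mgst3, 0.16 for Keap1 and 0.16 for Txnrd2. The rhythm changed with tamoxifen in males for Sod1 (0.32), Cat (0.31), Gclm (0.29), Gpx4 (0.26), Txnrd1 (0.25) and Prdx5 (0.25), and 0 of these 6 were called without the 10 high-TEC vehicle male libraries (9 members then had an unadjusted p under 0.05 in edgeR, and DESeq2 on all libraries called 6).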

How the results depend on the processing

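The direction of 14 member values turned. Leaving out the 10 high-TEC vehicle male libraries, the tamoxifen effect in males was -0.029 for Cat, -0.15 for Prdx6 and -0.034 for Txn2, and the sex difference in vehicle hearts -0.11 for Cat, -0.21 for Nqo1, -0.15 for Prdx3, -0.13 for Sod2 and -0.10 for Txn2. The interaction became 0.23 for Nqo1, 0.12 for Prdx3 and 0.15 for Prdx6. The sex difference in vehicle hearts of Txn2 was -0.0021 in the second 24 h alone, and after the length and GC correction that of Gstm1 was 0.070 and that of Gstp1 0.0087. The cause was not tested.

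Member counts moved most for sparse calls. The sex difference in tamoxifen hearts (6) gave 2 with no low-count filter, 1 in either 24 h alone, 10 with the title-number term and 3 to 7 when one time was left out. The rhythm in vehicle females (18) gave 2 in the first 24 h alone and 5 to 19 when one time was left out, the 5 without ct 42. The rhythm in vehicle males (14) gave 4 in the second 24 h, 6 without the 10 libraries and 9 with the compared groups alone. The rhythm in tamoxifen females (5) gave 2 in the first 24 h, 3 in the second and 8 with the compared groups alone. The rhythm in tamoxifen males (3) gave 0 in the second 24 h (5 at an unadjusted p under 0.05 in edgeR, 5 by DESeq2 on all libraries) and 5 without the 10 libraries, without the library labelled tamoxifen male at ct 54, after the length and GC correction, with the title-number term and by DESeq2. The rhythm change in females (0) gave 3 without the libraries high in Myl7. The rhythm change in males (6) gave 2 with no filter, 0 in the second 24 h (5 unadjusted), 0 without the 10 libraries (9 unadjusted), 2 after the length and GC correction, 3 with the compared groups alone and 0 to 8 when one time was left out. The rhythm difference between the sexes in vehicle hearts (12) gave 7 in the second 24 h, 5 without the 10 libraries, 7 without the libraries high in Myl7 and 7 to 20 when one time was left out.

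Over all genes, calls ranged from 2211 to 5486 for tamoxifen in females (4299), 6652 to 12163 in males (10936), 395 to 2398 for sex in tamoxifen hearts (1201), 4500 to 8401 for the interaction (8181), 1231 to 6835, 2932 to 9124, 739 to 4014 and 230 to 2106 for rhythms in females (5396) and males (8632) given vehicle and in females (2675) and males (1255) given tamoxifen, 3 to 662 and 1 to 4830 for rhythm changes in females (37) and males (3237), and 1288 to 6994 and 0 to 19 for rhythm differences in vehicle (5838) and tamoxifen hearts (6). Library size alone moved the share of higher calls from 55.4% to 42.8% in females, 46% to 33.6% in males and 53.1% to 66.6% for sex in tamoxifen hearts. No paired analysis was possible because no title number is shared between groups.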
